A study of Mus musculus with 6 samples.

Results

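Inhibitory and Fc receptors of B cells were described as 10 genes, namely Fcgr2b, Cd22, Cd72, Siglecg, Fcrl1, Fcrl5, Fcrla, Fcer2a, Pirb and Lair1. They were picked by name and function from the 41669 genes of the deposited table, and 10 of 10 were found and passed the low-count filter, as did 12172 genes in all. RNA came from B cells of the spleen of NZB/W F1 mice, 3 of them female and 3 male. These hybrid mice develop autoimmunity that resembles lupus, and all 6 had reached late disease. The cells had been taken from the spleen by positive selection on a column and cultured for 24 h with CpG, a ligand of Toll-like receptor 9. Every library was therefore from diseased and stimulated cells, each from a mouse numbered separately, and the only contrast was female against male. The age of the mice, the antigen used for selection, unstimulated cells and healthy mice were not part of the labels or the comparison.

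B cell activation through the antigen receptor is held back by surface proteins whose cytoplasmic tails carry the immunoreceptor tyrosine-based inhibitory motif, ITIM. When the kinase Lyn phosphorylates this motif, the tail recruits the phosphatases SHP-1 (Ptpn6) or SHIP-1 (Inpp5d), which reverse signalling steps started by the antigen receptor. These receptors sense ligands of several kinds. FcγRIIB senses IgG in immune complexes, CD22 and Siglec-G sense sialic acids, and CD72 senses semaphorin 4D. PIR-B senses MHC class I and LAIR-1 senses collagen. The Fc receptor-like genes encode relatives of the Fc receptors, and Fcer2a encodes CD23, the low-affinity receptor for IgE on follicular B cells. Mice that lack Fcgr2b on a susceptible background develop lupus, and the NZB allele of Fcgr2b is known for deletions in its promoter.

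Levels are CPM, counts scaled to the column total, and errors are SD over 3 libraries unless stated. The column totals were 24089561 to 35659883 estimated counts, so the smallest level told from 0 in 1 library, taken as 3 counts, lay between 0.0841 and 0.125 CPM; this covers counting error only. Female replicate 3 stood apart, scoring 94.2 on principal component 1, where the other 5 libraries scored -47.9 to 6.66. Its median gene deviated by -0.38 log2 units from the mean of the others, and the median was 0.11 in the lowest quartile of GC content and -1.15 in the highest. Female replicate 1 had the opposite trend, -0.10 and 0.59. Of the genes that define B cells, Ms4a1 (CD20) was at 1424 to 1658 CPM over the 6 libraries and the transcription factor gene Pax5 at 496.6 to 591.4 CPM. Others were low, with Cd79a at 4.61 to 29.4 CPM and Cd74 at 1.33 to 28.3 CPM. Their lowest values were both in female replicate 3, and their transcripts had a GC content of 54.9 and 56.6%, against 40.6% for Ms4a1. Pax5, at 50.6%, had its highest value in that library.

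The 10 genes lie on 5 autosomes in GRCm38. Fcgr2b (170958617 to 170976547) and Fcrla (170917576 to 170927583) are neighbours on chromosome 1, and Fcrl1 (87376387 to 87402934) and Fcrl5 (87435773 to 87500678) are neighbours on chromosome 3. Chromosome 7 holds Pirb (3711409 to 3720391), Lair1 (4003402 to 4063204), Cd22 (30865402 to 30880342) and Siglecg (43408204 to 43418358). Cd72 lies on chromosome 4 (43446462 to 43454628) and Fcer2a on chromosome 8 (3681737 to 3694175). How far reads can be assigned to 1 gene was described by the share of each gene's distinct 31-base words that also occur, on either strand, in transcripts of another gene. This share was 0% for Fcrl1 and Fcrla, 0.057% for Fcrl5, 1.97% for Fcer2a and 3.17% for Lair1. It was 7.01% for Siglecg, 8.15% for Fcgr2b, where 4.15% were shared with the activating receptor gene Fcgr3, and 10.7% for Cd22. Pirb shared 44.1% of its words, 23.7% with the Pir-like gene Gm14548, so its counts are uncertain. Cd72 shared 38.5%, all with Tesk1, whose gene overlaps it by 1603 bases on the other strand. Tesk1 itself had 0.594 CPM on average. No source says whether strand was used in counting. For Cd22, 7.98% of the words were shared with Gm29439, an antisense gene of 601 bases within it (0.470 CPM).

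The 250 bases upstream of a start site are shown for the pair of genes for which the promoter is of most interest here: Fcgr2b, because its promoter is known to differ in NZB mice, and Fcer2a, because it was the gene with the largest difference between the sexes. Both are the reference (C57BL/6J) sequence of GRCm38.p6 from RefSeq, minus strand, and the alleles of these mice were not read. The Fcgr2b window is chr1:170976072-170976321. The Fcer2a window is that of its second start site of 3 in RefSeq, chr8:3690862-3691111. It is shown because it alone of the 3 holds a match to a motif searched; the windows chr8:3694175-3694424 and chr8:3690391-3690640 hold none.
Fcgr2b: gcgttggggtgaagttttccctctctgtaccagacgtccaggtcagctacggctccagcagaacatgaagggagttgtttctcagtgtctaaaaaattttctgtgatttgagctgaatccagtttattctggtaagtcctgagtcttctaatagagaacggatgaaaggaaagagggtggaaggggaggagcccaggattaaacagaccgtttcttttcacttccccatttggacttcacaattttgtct
Fcer2a: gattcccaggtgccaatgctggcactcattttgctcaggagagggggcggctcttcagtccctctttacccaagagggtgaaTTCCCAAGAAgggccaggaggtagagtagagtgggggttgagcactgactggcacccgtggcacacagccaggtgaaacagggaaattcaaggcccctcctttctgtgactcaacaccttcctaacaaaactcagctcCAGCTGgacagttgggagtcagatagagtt
Capitals mark matches, on either strand, to TTC and GAA with 4 bases between them, the spacing that STAT6 prefers, and to CAGCTG, an E-box. The STAT6-type motif was in 5.89% and CAGCTG in 13.1% of 32536 windows of the same length over all genes. Another motif searched, the octamer ATGCAAAT, was in 1.62% of all windows. Of the 13 windows of the 10 genes, the STAT6-type motif was in 2 (Fcer2a and Lair1), CAGCTG in 1 (Fcer2a) and the octamer in 0. A match is a description of the letters and not a binding site.

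Per kilobase of the longest transcript, the scale on which genes were compared with each other, the receptors spanned a wide range. Fcrl5 led with 50.6 ± 13.5 CPM per kb (SD over 6 libraries), followed by Fcrla with 43.8 ± 12.9, Fcgr2b with 32.2 ± 6.46 and Fcrl1 with 32.2 ± 3.66. Fcrl5 was above Fcrla and Fcrla above Fcgr2b in 5 of 6 libraries, and Fcgr2b was above Fcrl1 in 3 of 6, so these neighbours did not differ beyond their spread. Then came Cd72 with 12.5 ± 3.36, Cd22 with 7.15 ± 3.33 and Siglecg with 2.67 ± 1.04 CPM per kb. Each step from Fcrl1 to Siglecg held in 6 of 6 libraries. Fcer2a, at 1.51 ± 1.19, lay below Siglecg in 5 of 6 libraries and above Lair1, at 1.38 ± 0.380, in only 2 of 6. Pirb was lowest in all 6 libraries, at 0.283 ± 0.0866 CPM per kb. With the median transcript length in place of the longest, the first 4 genes were Fcrla, Fcgr2b, Fcrl5 and Fcrl1, Lair1 took place 7 and Siglecg place 9.

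**Figure D1:**
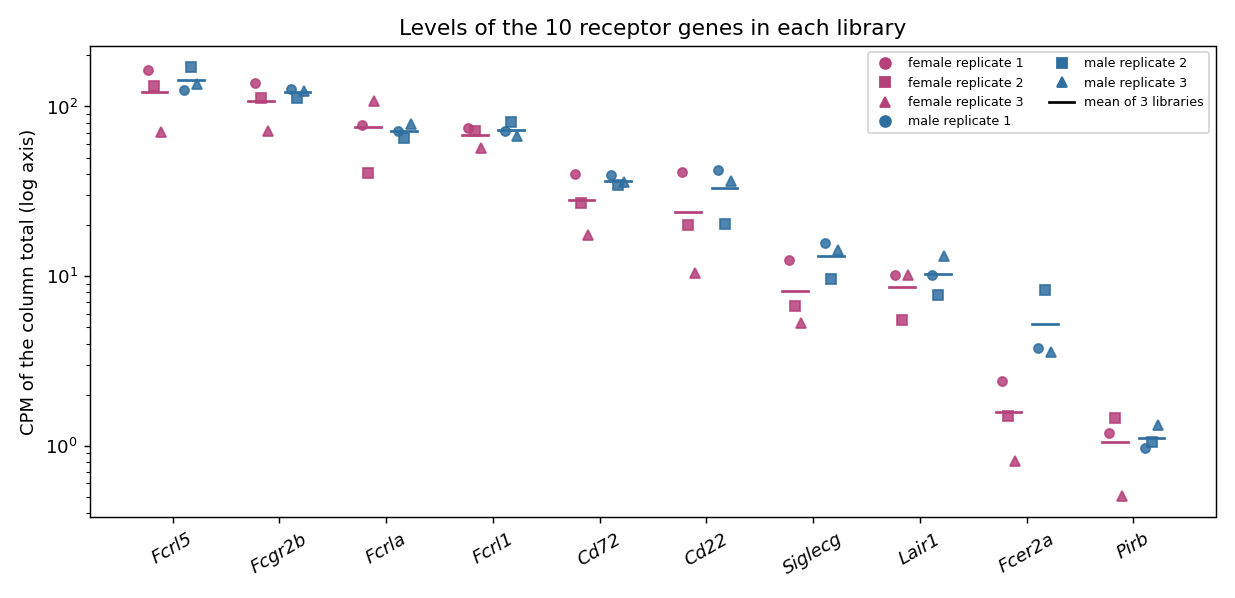
CPM of the column total (log axis) of the 10 receptor genes in each library, females left of males for each gene, with the mean of 3 libraries as a line. Fcer2a is the gene whose female values (0.808 to 2.42 CPM) lie below all male values (3.59 to 8.32 CPM), and female replicate 3 holds the lowest value of 8 of the 10 genes.

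No receptor gene passed the test between the sexes. In edgeR's quasi-likelihood fit over 12172 genes, adjusted by Benjamini-Hochberg at 0.05, 0 of the 10 were called, against 0.0575% of all genes tested (7 genes). At an unadjusted p under 0.05 there was 1 of 10, Fcer2a, against 2.89% of all genes, and DESeq2 and limma-voom also called 0 of 10. The log2 fold change (female over male, on the TMM scale) was below 0 for 7 of 10 genes, against 49.9% of all genes, and its median was -0.12, against 0.00 for all genes. Only Fcer2a had female and male values that did not overlap, in a comparison where 7.55% of all genes were lower in every female library and 2.69% higher. With scaling by column totals alone, the median over all genes tested was -0.12 on the log2 scale. The female libraries did not share a shift. Their TMM factors were 1.07, 0.993 and 0.816 in replicates 1 to 3, against 1.04 to 1.05 in males. The part of scaling in the split between 7.55% and 2.69% was not tested.

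Fcgr2b, the only inhibitory IgG receptor of B cells, was among the most abundant of the 10 genes per kilobase. It had 137.2, 112.5 and 71.4 CPM in female replicates 1 to 3, against 127, 112.1 and 123.9 CPM in male replicates 1 to 3. Female replicate 1 was above the males, female replicate 2 was near the lowest of them, and female replicate 3 was below all other libraries. The means were 107 ± 33.2 CPM in females and 121 ± 7.87 CPM in males, with a log2 fold change of -0.07 ± 0.17 (SE; edgeR adjusted p = 0.999). Without female replicate 3 it was 0.06. For Fcgr3, the activating receptor gene that shares part of its sequence with Fcgr2b, females averaged 0.662 ± 0.394 CPM and males 0.769 ± 0.234 CPM. Per kilobase of the longest transcript, Fcgr2b was 39.3 to 88.3 times as high as Fcgr3 in female libraries and 41.0 to 75.2 times in male ones. Fcgr3 was low in every library, at 0.307 to 1.09 CPM, so the size of this ratio is uncertain. Fcer1g, the signalling chain of activating Fc receptors, was also low, at 0.859 ± 0.600 CPM in females and 0.448 ± 0.160 CPM in males.

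Fcgr2b was compared with 6271 other genes of at least 10 CPM on the shape of its pattern over the 6 libraries, as the root mean square difference of log2 levels centred on each gene's mean. The nearest genes were Casc3 (0.03 log2 units), Rbm14 (0.04) and Prrc2a (0.04), against a median of 0.32 over all candidates. In these genes, too, female replicate 3 was the lowest library, which picking them by likeness favours. It was also the lowest library for 51.4% of all genes tested. Casc3, for example, had 49.2, 41.7 and 25.1 CPM in female replicates 1 to 3 and 41.5 to 45.8 CPM in males. Among the receptors the nearest to Fcgr2b was Cd72 (0.15) and the farthest was Fcer2a (0.86).

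The sialic acid receptors Cd22 and Siglecg varied widely within both sexes. Cd22, which dampens antigen receptor signalling by recruiting SHP-1, had 41, 20 and 10.4 CPM in female replicates 1 to 3, against 42.3, 20.3 and 36.4 CPM in male replicates 1 to 3. Female replicate 1 was close to the highest male and female replicate 2 close to the lowest male, so the sexes overlapped over most of the range. The log2 fold change was -0.41 ± 0.43 (SE; edgeR adjusted p = 0.999), and -0.12 without female replicate 3 or -0.94 without female replicate 1. Siglecg, best known for restraining B1 cells, had 12.4, 6.67 and 5.25 CPM in female replicates 1 to 3, against 15.6, 9.66 and 14.2 CPM in male replicates 1 to 3. Of the female libraries, replicates 2 and 3 were below every male and replicate 1 was among the males, with a log2 fold change of -0.60 ± 0.32 (SE; edgeR unadjusted p = 0.102, adjusted p = 0.999). It was -0.46 without female replicate 3 and -0.93 without female replicate 1. The 2 genes had the highest values of the 6 libraries in male replicate 1, and per kilobase Cd22 was 1.99 to 3.31 times Siglecg in females and 2.11 to 2.72 times in males. In St6gal1, the sialyltransferase gene that makes the preferred ligand of CD22, the levels were 121.5, 154.4 and 64.8 CPM in females and 105.4 to 119.7 CPM in males.

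Cd72, a type II membrane protein with a C-type lectin-like domain, had 40, 26.9 and 17.4 CPM in female replicates 1 to 3, against 39.5, 34.4 and 35.7 CPM in male replicates 1 to 3. The males lay close together, female replicate 1 was just above the highest of them, and the other females were below all males. The log2 fold change was -0.28 ± 0.23 (SE; edgeR adjusted p = 0.999), -0.12 without female replicate 3 and -0.05 once the length and GC trend of each library was removed, but -0.53 without female replicate 1. Sema4d, whose product binds CD72, had 58.6, 53.5 and 79.2 CPM in female libraries and 53, 33.2 and 51.8 CPM in male ones. It was higher in every female library than in every male one, with a log2 fold change of 0.64 ± 0.29 (edgeR unadjusted p = 0.059, adjusted p = 0.999).

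Pirb and Lair1, inhibitory receptors also known from myeloid cells, were the least abundant ITIM receptors per kilobase of the longest transcript. Pirb had 1.18, 1.45 and 0.506 CPM in female replicates 1 to 3, from 29, 43 and 18 estimated counts, against 0.969, 1.05 and 1.32 CPM in male replicates 1 to 3, from 31, 29 and 44 counts. Its log2 fold change of 0.00 ± 0.45 (SE) took either sign under the alternatives, from -0.30 to 0.27. Pira2, an activating partner of the same family, was 1.24 to 9.83 times as high as Pirb per kilobase in females and 3.76 to 4.91 times in males, at 1.33 to 4.93 CPM in females and 3.91 to 4.69 CPM in males, with female replicate 1 the lowest. Lair1 had 10.1, 5.49 and 10.1 CPM in female replicates 1 to 3, against 10.1, 7.73 and 13.1 CPM in male replicates 1 to 3. The sexes overlapped, with the lowest value in female replicate 2 and the highest in male replicate 3, and the log2 fold change was -0.11 ± 0.36 (SE; edgeR adjusted p = 0.999).

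Because myeloid cells also carry Pirb and Lair1, myeloid markers were read in the same libraries. The 11 monocyte and macrophage markers found summed to 4.24 to 10.1 CPM in females and 2.15 to 3.0 CPM in males. Of the 4 markers tested, 4 had positive log2 fold changes and 0 were called. Lyz2 averaged 2.64 ± 0.596 CPM in females, against 0.321 ± 0.0602 CPM in males (edgeR adjusted p = 0.0837). Spic was also higher in every female library, at 0.929 to 2.16 CPM against 0.307 to 0.400 CPM in males. Its log2 fold change was 2.19 ± 0.455 (SE; edgeR adjusted p = 0.797). Marco, not tested, was at 0.0283 to 0.407 CPM in females and at 0 in every male library. Itgam and Cd68 overlapped between the sexes, with log2 fold changes of 0.915 and 0.062. C1qa, C1qb, C1qc, Cd14 and Csf1r were at or below 0.137 CPM in every library. Of the 7 neutrophil markers, 3 were at 0 in all libraries and the sum was at most 0.454 CPM. The part of such cells in the levels of Pirb, Lair1 and Fcgr2b was not tested. In bulk RNA, fewer cells of a type and less RNA per cell cannot be told apart.

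The Fc receptor-like genes had no common direction, with 2 of 3 log2 fold changes positive and 0 of 3 called. Fcrl1, an activating receptor of B cells, had 74.4, 71.2 and 56.8 CPM in female replicates 1 to 3, against 71.2, 80.7 and 66.8 CPM in male replicates 1 to 3. Its highest value over all libraries was 1.42 times its lowest, the narrowest range of the 10 genes, and its log2 fold change was 0.02 ± 0.14 (SE; edgeR adjusted p = 0.999). Fcrl5, whose tail holds inhibitory and activating motifs and which marks marginal zone and B1 cells in mice, had 164.4, 131.2 and 70.7 CPM in female replicates 1 to 3. The male replicates 1 to 3 had 125.3, 170.1 and 135 CPM, so the sexes overlapped apart from female replicate 3, and the log2 fold change was -0.14 ± 0.23 (SE; edgeR adjusted p = 0.999).

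Fcrla encodes a relative of the Fc receptors that stays inside the cell. It had 78.1, 40.5 and 107 CPM in female replicates 1 to 3, against 71.6, 65.1 and 78.6 CPM in male replicates 1 to 3. The females therefore held both the lowest and the highest value while the males lay close together; Fcgr2b, Cd72 and Pirb also had both extremes in females, but with female replicate 3 lowest, where Fcrla was highest. The log2 fold change was 0.25 ± 0.37 (SE; edgeR adjusted p = 0.999) and turned to -0.28 without female replicate 3. Fcrla and its chromosome 1 neighbour Fcgr2b moved in opposite directions in that library, at 0.72 and -0.77 log2 units from the mean of the other 5. Lair1 was the receptor whose pattern was nearest to that of Fcrla (0.25 log2 units), and both were lowest in female replicate 2.

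Fcer2a showed the largest difference between the sexes and the widest range of the 10 genes. It had 2.42, 1.49 and 0.808 CPM in female replicates 1 to 3, from 58, 44 and 29 estimated counts. The male replicates 1 to 3 had 3.75, 8.32 and 3.59 CPM, from 118, 228 and 119 counts. Every female library was below every male library, and male replicate 2 was far above the other males. The means were 1.57 ± 0.809 CPM in females and 5.22 ± 2.69 CPM in males, and the log2 fold change was -1.65 ± 0.48 (SE), a value that 0.403% of all genes tested reached or went below. The unadjusted p was 0.00995, but after adjustment over 12172 genes it was 0.999 with edgeR, and 0.244 with DESeq2. An exact 2-sided permutation test of its log2 level gave p = 0.1, the smallest that 3 against 3 libraries allow. Any gene whose sexes do not overlap gives this value, so the test adds nothing to the separation already stated. The log2 fold change was -1.41 without female replicate 3, -1.14 without male replicate 2 and -1.53 after removal of the length and GC trend, so the direction was the same in these fits.

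Cr2 encodes CD21, which binds CD23 in humans and is itself a marker of follicular and marginal zone B cells, and it lay the other way. Cr2 had 209.3, 200.4 and 179.3 CPM in female replicates 1 to 3, against 169.8, 177.1 and 161.5 CPM in male replicates 1 to 3. Its females were all above its males, with a log2 fold change of 0.35 ± 0.13 (edgeR unadjusted p = 0.0268, adjusted p = 0.999). Per kilobase, the ratio of Fcer2a to Cr2 was 0.0125 to 0.0320 in females and 0.0611 to 0.130 in males. The genes nearest to Fcer2a in pattern, looked up after its values were seen, were A230050P20Rik (0.34 log2 units), Slc1a5 (0.41) and BC018473 (0.41), against a median of 0.97 over 6272 candidates. Like Fcer2a, they were lowest in female replicate 3 and highest in male replicate 2, where BC018473 reached 225.4 CPM against 43.2 CPM in that female library. Picking these genes by likeness to Fcer2a favours such shared extremes.

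**Figure D2:**
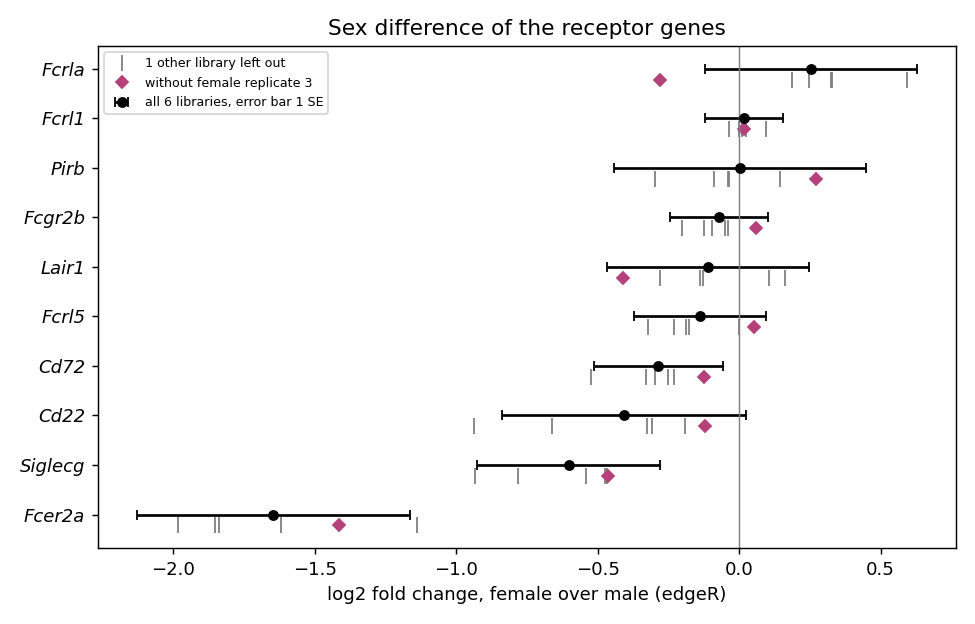
Log2 fold change (female over male, edgeR) of each receptor gene with all 6 libraries (circle, bar 1 SE), with 1 other library left out (ticks) and without female replicate 3 (diamond). Fcer2a stays below 0 throughout, from -1.98 to -1.14, while Fcgr2b, Fcrl5 and Fcrla change sign without female replicate 3.

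The library that stood apart was the lowest of the 6 for most receptors. Female replicate 3 held the lowest value of 8 of 10 receptor genes, against 51.4% of all genes tested. The median of the 10 genes in it was -1.01 log2 units from the mean of the other 5 libraries, against -0.38 for all genes. The deviations were -1.92 for Fcer2a, -1.53 for Cd22, -1.08 for Siglecg and Pirb, and -1.02 for Fcrl5, with Cd72 just above the last. They were smaller for Fcgr2b (-0.77) and Fcrl1 (-0.36), and above 0 for Lair1 (0.18) and Fcrla (0.72). The GC content of the longest transcript was 43.5 to 45.4% for Lair1, Fcrl1 and Fcgr2b and 51.6 to 56.5% for Fcer2a, Cd22, Siglecg and Cd72. Fcrl5, at 48.2%, and Fcrla, at 47.9%, had nearly the same GC content and deviated in opposite directions. After removal of the length and GC trend of each library, the log2 fold changes were -0.34 for Cd22, -0.47 for Siglecg, -0.05 for Cd72 and 0.41 for Fcrla, and 0 of 10 genes were called.

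**Figure D3:**
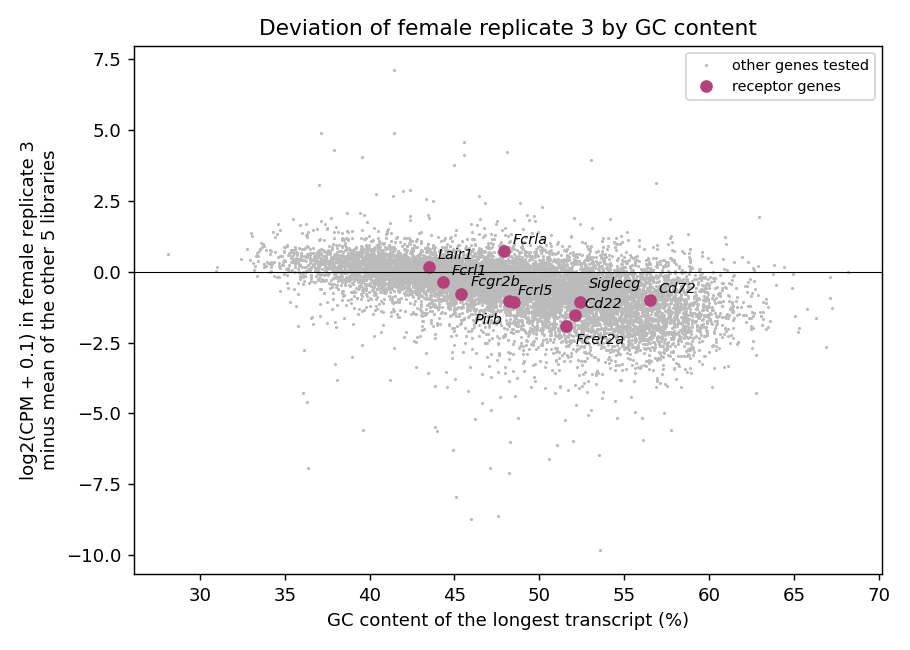
Deviation of female replicate 3 from the mean of the other 5 libraries, in log2(CPM + 0.1), against the GC content of the longest transcript (%), for all genes tested (grey) and the receptor genes (coloured). Deviations fall with rising GC content among all genes, from a median of 0.11 in the lowest quartile to -1.15 in the highest, and Fcrla (0.72) lies above the other receptors.

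**Figure D4:**
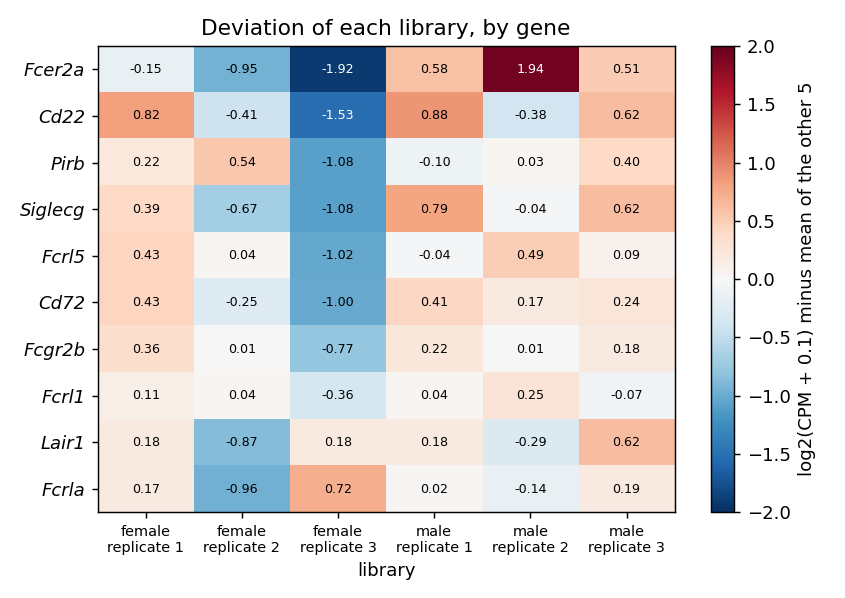
Deviation of each library from the mean of the other 5, in log2(CPM + 0.1), for the 10 receptor genes (rows, ordered by female replicate 3), females left of males. The lowest value is Fcer2a in female replicate 3 (-1.92) and the highest is Fcer2a in male replicate 2 (1.94).

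The proteins that ITIM receptors act through gave no call. Of the 15 effector genes listed, 12 passed the low-count filter, 8 with a positive and 4 with a negative log2 fold change, and 0 were called (median 0.12, against 0.00 for all genes). Lyn, the kinase that phosphorylates the motif, was nearly level over the libraries, with a mean of 236 ± 4.71 CPM for females, against 224 ± 8.23 CPM for males. Its log2 fold change was 0.23 ± 0.15 (SE; edgeR adjusted p = 0.999). Ptpn6 had 38.5, 12.6 and 3.03 CPM in female replicates 1 to 3, against 21.8, 13.3 and 19.4 CPM in male replicates 1 to 3. Its female values ran from the highest to the lowest of all 6 libraries, as did those of Inpp5d, with 46.4, 26.2 and 14.3 CPM in females against 32.5 to 33.5 CPM in males. The GC content of the longest transcript was 54.9% for Ptpn6 and 53.6% for Inpp5d, against 45.8% for Lyn. Sema4d, at 53.4%, went the other way, with its highest value (79.2 CPM) in female replicate 3. Cblb, a ubiquitin ligase gene, had 200.8, 143.8 and 167.7 CPM in females and 218.9 to 221.8 CPM in males, and was lower in every female library (log2 fold change -0.23 ± 0.16, edgeR adjusted p = 0.999).

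Related receptors and ligands were described in the same way, and 0 of their tested genes were called. Of 12 other inhibitory receptors tested, 7 were positive and 5 negative (median 0.07, and -0.18 without female replicate 3). Btla, the receptor for HVEM, had 396.2, 431.9 and 498.6 CPM in females and 471, 509.9 and 492.1 CPM in males, and Clec12a had 44.4 to 80.7 CPM in females and 48 to 67.9 CPM in males. Of 9 tested genes from the list of other Fc receptors and Fc receptor-like genes, which also holds signalling chains such as Cd247 and the complement receptor gene Cr2, 3 were positive and 6 negative (median -0.35, and -0.15 without female replicate 3). Trim21, a cytosolic antibody receptor gene, had 14.8 to 16.7 CPM in females and 14 to 20.6 CPM in males. Of 13 ligand and ligand synthesis genes tested, 7 were positive and 6 negative (median 0.02, and -0.05 without female replicate 3), with the sialyltransferase gene St8sia4 at 612.3 to 944.1 CPM in females and 618.5 to 887.3 CPM in males. B2m, the invariant chain gene of MHC class I, had 465 to 729.3 CPM in females and 637.1 to 647.2 CPM in males. Of the Pira and Pir-like genes 2 were tested, both negative (median -0.30, and -0.18 without female replicate 3), and Gm15448 was at or below 0.599 CPM throughout.

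Markers of B cell states and of other lineages gave no call either. Of 9 B cell markers 3 were positive (median -0.06, and -0.11 without female replicate 3), and of 10 tested markers of follicular, marginal zone, B1 and age-associated B cells 7 were positive (median 0.38), with S1pr1 at 8.96 to 18.6 CPM in females and 9.69 to 10.7 CPM in males. Of 6 tested plasma cell markers 5 were positive (median 0.30, and 0.52 without female replicate 3), and 3 of 6 had an unadjusted p under 0.05, against 2.89% of all genes. The list did not move as a whole. The log2 fold changes of Sdc1 (0.003 ± 0.373) and Mzb1 (0.024 ± 0.421) were positive but near 0, and that of Xbp1 was -0.000 ± 0.161. Tnfrsf17, not tested, was at 0 in every library. Igj and Prdm1, named after their values were seen, were higher in every female library, the opposite direction to Fcer2a. Igj, the antibody joining chain gene, had 37.7, 48.4 and 48.2 CPM in female replicates 1 to 3, against 17.1, 17 and 18.3 CPM in male replicates 1 to 3 (log2 fold change 1.51 ± 0.22, edgeR adjusted p = 0.169). Prdm1, the gene of the plasma cell factor Blimp-1, had 22.1, 61.5 and 22.9 CPM in female replicates 1 to 3, against 11.7, 12.8 and 12.9 CPM in male replicates 1 to 3 (log2 fold change 1.63 ± 0.39, edgeR adjusted p = 0.999). Irf4 had 143.7, 225.1 and 123.1 CPM in females and 110.6, 138.9 and 109.1 CPM in males, and Xbp1 had 72.9 to 124.2 CPM in females and 103.5 to 122.4 CPM in males. T and NK cell markers (2 of 4 tested positive, median 0.33, and 0.49 without female replicate 3) summed to 6.95 to 12.7 CPM in females and 5.73 to 8.71 CPM in males. Cd3d, named after its values were seen, was higher in every female library, at 2.33 to 4.54 CPM against 0.476 to 2.00 CPM in males. Its log2 fold change was 1.75 ± 0.635 (SE, edgeR adjusted p = 0.999). The other tested markers, Klrb1c, Cd8a and Lck, overlapped between the sexes, with log2 fold changes of 0.824, -0.719 and -0.168. Cd3e, Cd3g, Cd4 and Trac, not tested, were at most 0.2252 CPM in every library. Ncr1 was at 0 in every library. Dendritic cell markers (1 of 3 tested positive, median -0.20, and -0.05 without female replicate 3) summed to 4.86 to 8.46 CPM in females and 5.57 to 9.70 CPM in males. The part of differing B cell states in the level of Fcer2a was not tested.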

How the data were processed

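The deposited table holds estimated counts per gene symbol, 1 column for each of 6 libraries, with no scaling to a common depth by the authors. The tools kallisto and DESeq2 and the build GRCm38.p6 are named per the submitters' processing notes. Their versions, settings and transcript annotation were not given in the sources used here. Reads were thus assigned to reference transcripts, which can lower counts of genes whose NZB or NZW alleles differ. Levels are CPM of the unrounded column total. For tests, counts were rounded to whole numbers and fitted with edgeR 4.0.16 under R 4.3.3. The fit used TMM factors, the filterByExpr filter and the quasi-likelihood test for a model with a sex term alone, adjusted by Benjamini-Hochberg over all genes tested. The standard error is the log2 fold change divided by the square root of F. Alternatives were DESeq2 1.42.0, limma-voom (limma 3.58.1), scaling by RLE or by totals alone, the low-count filter dropped or set to 1 CPM in 3 libraries, a block for replicate number, a length and GC trend removed (splines with 4 degrees of freedom), and each library left out. Transcript lengths, GC content and coordinates are from GENCODE M21, which matched 96.5% of symbols; promoters are from RefSeq GRCm38.p6. Deviations and pattern likeness used log2(CPM + 0.1). The code was tested on simulated data. The members, lists and alternatives were chosen with earlier results of these data known. Named were all 10 members, partners or ligands of members, and the 2 highest genes of each list except the neutrophil and dendritic cell markers. Other genes were named after their values were seen. One B cell marker of the lists is not reported here.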

Additional observations from a re-analysis of the deposited data

How the results depend on the processing

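None of the 10 receptor genes was called in any of 14 alternative fits (smallest adjusted p 0.244, for Fcer2a with DESeq2). The number called over all genes was 7, against 35 with DESeq2, 11 with no filter on low counts, 11 with the length and GC trend removed, and 4 to 12 with 1 library left out. The receptors' median log2 fold change of -0.12 ranged from -0.26 (without female replicate 1) to -0.11 with 1 library left out, and came to -0.075 after removal of the length and GC trend and -0.25 under library totals only. Fcer2a, Siglecg, Cd22 and Cd72 kept a negative log2 fold change in all 14 fits, and with 1 library left out ranged from -1.98 to -1.14, -0.93 to -0.46, -0.94 to -0.12 and -0.53 to -0.12, in that order. Signs turned for 6 of the 10. Without female replicate 3 Fcgr2b was at 0.058, Fcrl5 at 0.054 and Fcrla at -0.28, and with 1 library left out they ranged from -0.20 to 0.058, -0.32 to 0.054 and -0.28 to 0.59. Pirb was at -0.074 with limma-voom, -0.092 with library totals only, -0.002 with no filter or with the 1 CPM filter, and -0.30 to 0.27 with 1 library left out. Lair1 ranged from -0.41 to 0.16 with 1 library left out, and Fcrl1 from -0.037 to 0.095, with -0.11 under library totals only. The cause of these turns was not tested. Same-numbered libraries of the 2 sexes deviated with correlations of 0.222, 0.0423 and 0.0695. The labels state no pairing. Without values for differently numbered libraries, these correlations cannot decide whether same-numbered mice were paired. With the replicate block 7 genes and 0 receptors were called, the receptors' median was -0.16 and Pirb was at -0.058. Depth limits Pirb (18 to 44 counts) and Fcer2a (29 to 228 counts) most.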
